A study of Mus musculus with 9 samples.

Results

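The replacement core histone variants described here are the products of 7 mouse genes: H3f3a and H3f3b, which encode H3.3, and H2afz, H2afv, H2afx, H2afj and H2afy, which encode variants of H2A. They were chosen by symbol, by a rule that uses no measured value of theirs although earlier results of these data were known, and all 7 were found among the 21883 genes of the expression table. RNA was sequenced from invariant natural killer T (iNKT) cells, T cells with a semi-invariant receptor for glycolipids on CD1d, sorted by flow cytometry from the thymus of C57BL/6 mice. The 9 libraries were 3 of wild-type (WT) stage 2 cells, 3 of WT stage 3 cells, which have gained the surface receptor NK1.1, and 3 of stage 2 cells that lack Med23, a subunit of the Mediator complex that links transcription factors to RNA polymerase II. The WT mice were 6 weeks old, the labels give no age for the Med23-deficient mice, and the study used young adult mice of both sexes throughout. Cd4-Cre deleted the floxed Med23 alleles from the CD4+CD8+ double-positive (DP) thymocyte onwards, so the iNKT cells and the other T cells of those mice shared the loss. The labels did not say whether the replicates came from separate mice or whether the Med23-deficient libraries were prepared together with the WT ones. The p-values therefore measure the spread between these libraries, and genotype and any difference in preparation cannot be told apart.

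Most core histone protein is made in S phase, from clustered genes whose mRNAs end in a stem-loop in place of a poly(A) tail, to package newly replicated DNA. Replacement variants are made throughout the cell cycle from single genes, most of them with ordinary introns and poly(A) tails, and they enter chromatin as nucleosomes are lost or remodelled. H3.3 marks active genes and enhancers as well as heterochromatin at telomeres, H2A.Z flanks transcription start sites, H2A.X carries the phosphorylation that marks DNA breaks, and macroH2A lies over silenced chromatin. In T cells, as in other cells that move between rapid division and rest, the balance of S-phase and replacement histones is known to shift as division stops.

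Each of the H3.3 and H2A.Z proteins comes from a pair of genes, so the value of 1 gene is only part of the supply, and the pairs matter here because the sequencing had to tell them apart. H3f3a (ENSMUSG00000060743, chr1:180800832-180813943, minus strand) and H3f3b (ENSMUSG00000016559, chr11:116021912-116027962, minus strand) encode the same 136 amino acids, with no difference between them, from coding sequences that differ at 95 of 408 bases. The first 90 coding bases of each are given here, with capitals at the 20 bases that differ between the pair. Coordinates are those of the mouse build mm10 (GRCm38), and the sequences are from GENCODE vM21 transcripts of that build.
H3f3a: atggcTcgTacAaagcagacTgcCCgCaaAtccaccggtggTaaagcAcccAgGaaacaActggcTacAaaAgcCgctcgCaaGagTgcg
H3f3b: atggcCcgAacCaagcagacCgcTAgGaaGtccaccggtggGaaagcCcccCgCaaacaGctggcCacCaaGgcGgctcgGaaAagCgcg
The capitals are spread along the whole stretch, and the longest run shared by the full coding sequences was 23 bases. H2afz (ENSMUSG00000037894, chr3:137864487-137866922, plus strand) and H2afv (ENSMUSG00000041126, chr11:6427229-6444443, minus strand) encode the closely related proteins H2A.Z.1 and H2A.Z.2, which differ at 3 of 128 residues, from coding sequences that differ at 80 of 384 bases. Capitals again mark the bases that differ, 19 of the first 90.
H2afz: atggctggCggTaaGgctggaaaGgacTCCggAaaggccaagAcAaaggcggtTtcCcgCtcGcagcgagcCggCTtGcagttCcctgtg
H2afv: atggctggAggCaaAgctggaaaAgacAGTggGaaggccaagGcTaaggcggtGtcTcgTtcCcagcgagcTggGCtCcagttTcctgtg
H2afx (ENSMUSG00000049932, chr9:44334694-44336077, plus strand) and H2afj (ENSMUSG00000060032, chr6:136808244-136810074, plus strand) are each a single exon. The last 30 coding bases show what sets H2A.X apart: its capitals code for a final serine, glutamine, glutamate and tyrosine. The serine is the residue phosphorylated after DNA damage. H2A.J, 129 residues long against 143, lacks this ending.
H2afx: aagaaggcctcgcaggccTCTCAGGAGTAC
H2afj: aagacggagagccagaaggtgaagagcaag
H2afy (ENSMUSG00000015937, chr13:56073619-56136361, minus strand) encodes macroH2A1, an H2A joined to a large macro domain, 372 residues in all in the transcript examined.

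Likeness to other genes bears on some members more than on others, because the authors kept only reads that hit no more than 2 places in the genome. Among all 100-base windows of its transcript, 58.8% of those of H2afz also occurred in another annotated gene, and 32.2% occurred in at least 2 others, most of them in a transcript of Tmcc1 and in the processed pseudogene Gm8203. For H3f3a the shares were 7.73% and 6.86%, from processed copies such as H3f3c, and for H3f3b they were 2.44% and 0%. For H2afx 1.40% of windows were shared with S-phase H2A genes, and for H2afj, H2afv and H2afy none were. The level of H2afz is therefore the least certain of the 7. H3f3a, H2afj, H2afx and H2afy each overlap an annotated gene on the other strand. The library kit keeps strand, but whether the counting used it was not given in the sources used here.

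The labels and markers were checked first. The 7 genes expected of iNKT cells summed to between 934 and 1409 FPKM per library (the fragment count scaled by gene length and library size), and 6 markers of DP thymocytes to between 1.07 and 4.97. The 7 include T cell receptor and CD3 genes shared with other T cells. Of the 7, Zbtb16, which encodes PLZF, had means of 101 in WT stage 2, 27.5 in WT stage 3 and 78.1 in Med23-deficient stage 2. Klrb1c, which encodes NK1.1, ranged from 57.3 to 95.1 FPKM in WT stage 3, from 7.65 to 26.2 in WT stage 2 and from 2.61 to 4.60 in Med23-deficient stage 2. With Tbx21 and Il2rb, the other listed stage 3 genes, it summed to 403 to 488, 157 to 182 and 135 to 200 FPKM. These sums overlapped between the stage 2 groups, and the mean of Il2rb was 121 in WT stage 2 and 129 in Med23-deficient stage 2. Markers of B cells, myeloid cells and erythroid cells summed to at most 0.50, 1.24 and 0.75 FPKM, with 2 of 4, 3 of 5 and 1 of 4 listed genes in the table. Med23 itself was 5.51, 5.15 and 6.74 FPKM in WT stage 2 and 4.80, 3.60 and 3.92 in the Med23-deficient libraries, lower without overlap but still detected, over a gene model whose deleted part was not given in the sources used here. Read depth is unknown, since the files hold no counts. Between 15584 and 17333 genes were above 0 per library, and 1 short non-coding model, Gm23935, took 62.2% to 71.9% of the summed FPKM.

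All 7 genes were well expressed in all 9 libraries, between 7.68 and 63.2 FPKM. H3f3b, with a mean of 52.8 over the 9 libraries, stood at the 94.7th percentile of the 11767 genes with a mean of at least 1 FPKM, and H2afv, with 11.7, at the 72.5th. FPKM is scaled by length, but reads that hit more than 2 places were dropped and are not made up for. The places of H2afz and, less so, H3f3a in the order are therefore uncertain. Of their 100-base windows, 32.2% and 6.86% occurred in at least 2 other genes. In WT stage 2 cells the order by mean was H3f3b, H3f3a, H2afj, H2afx, H2afy, H2afz and H2afv. The levels of H3f3b and H3f3a overlapped in that group, as did those of each neighbouring pair from H2afx downwards, whereas H3f3a stood above H2afj and H2afj above H2afx without overlap. H2afy took place 5 in WT stage 2, place 3 in WT stage 3 and place 4 in Med23-deficient stage 2, and the order of the other 6 was the same in all 3 groups. In every library H3f3b was above H3f3a.

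**Figure D1:**
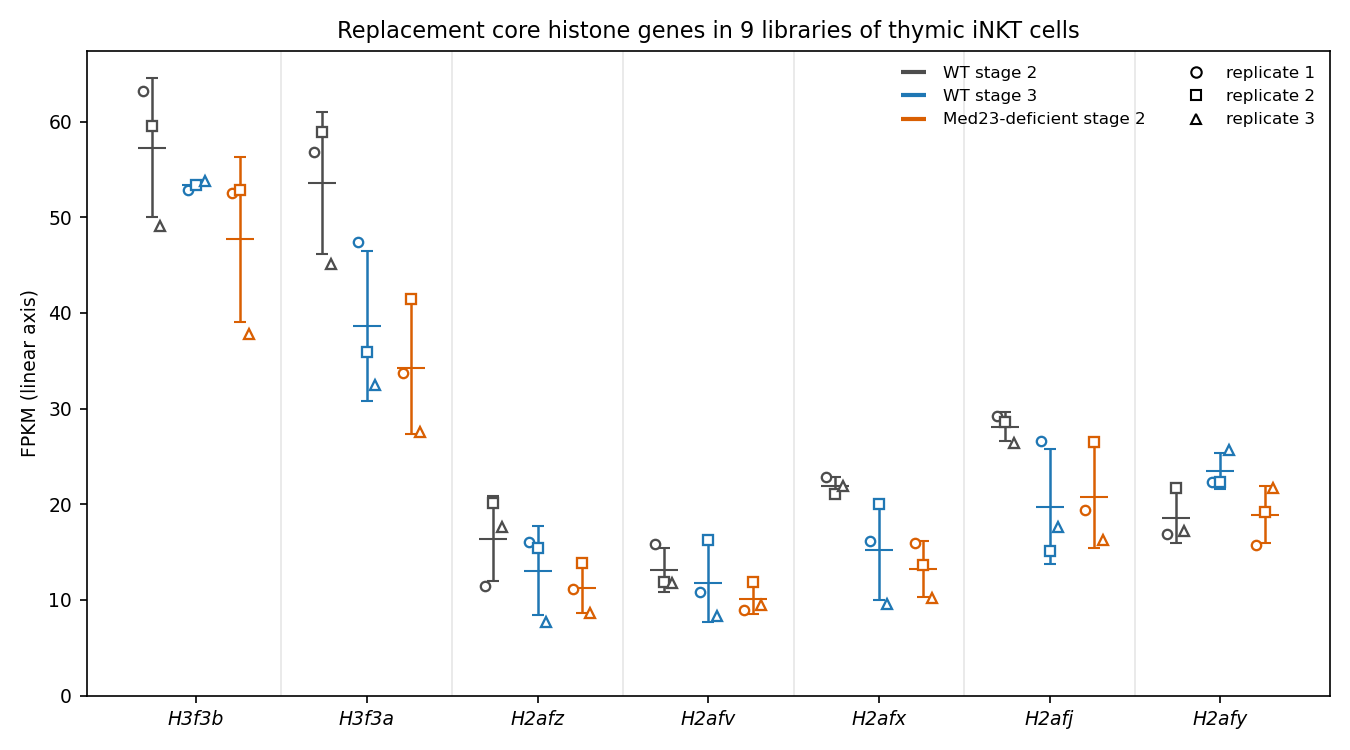
FPKM of the 7 replacement histone genes on a linear axis, with 1 symbol per library (circle, square and triangle for replicates 1, 2 and 3) and a bar for the mean ± SD of each group of 3. The WT stage 2 libraries of H2afx, between 21.1 and 22.8 FPKM, lie above all others of that gene, and H2afy is the only gene whose WT stage 3 libraries lie highest.

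None of the 7 genes passed the test in any comparison. With limma on log2(FPKM + 1), 0 of 7 reached an adjusted p of at most 0.05 in WT stage 3 against WT stage 2, where 1.67% of the 20689 genes tested did, and 0 of 7 reached a fold change of at least 2 with an unadjusted p of at most 0.05, against 3.6% of all genes. At an unadjusted limma p of at most 0.05 alone there were 3 of 7, against 13.2% of all genes. H3f3a and H2afj were lower and H2afy was higher. An ordinary linear model of the kind used by Ballgown gave 1 of 7, and the share of all genes in that model is not given here. The libraries of the 2 groups did not overlap for 2 of 7, H2afx (lower) and H2afy (higher), against 17.8% of all genes. In Med23-deficient against WT stage 2 cells, again 0 of 7 passed either threshold, against 0.213% and 2.11% of the 20674 genes tested. There 3 of 7 had an unadjusted limma p of at most 0.05, all lower (H2afx, H3f3a and H2afj), against 9.58% of all genes. The Ballgown-style model gave 4 of 7, again without a share of all genes to set beside it. H2afx and H3f3a did not overlap between the groups, 2 of 7 against 14.0% of all genes. Both comparisons use the same WT stage 2 libraries, so a high or low WT stage 2 library enters both.

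The direction was the same for most members. Of the 7, 6 had a lower mean on the log2 scale in WT stage 3 than in WT stage 2, with a median log2 fold change of -0.34 over the 7, and 6 of 7 were lower in Med23-deficient than in WT stage 2, with a median of -0.45. Of all genes tested 53.1% and 52.7% were lower in these comparisons, and of those with a mean of at least 10 FPKM 60.7% and 61.5%. The median of all genes tested was -0.01 in both comparisons, and that of genes with a mean of at least 10 FPKM, the range of these members, was -0.09 and -0.08. In both comparisons H2afy was the gene that was not lower. In WT stage 3 the median rested in part on 1 library: without replicate 3 of WT stage 3 it was -0.10, and without replicate 1 it was -0.51. Fewer cells that express a gene and less RNA per cell cannot be told apart in such bulk samples.

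**Figure D2:**
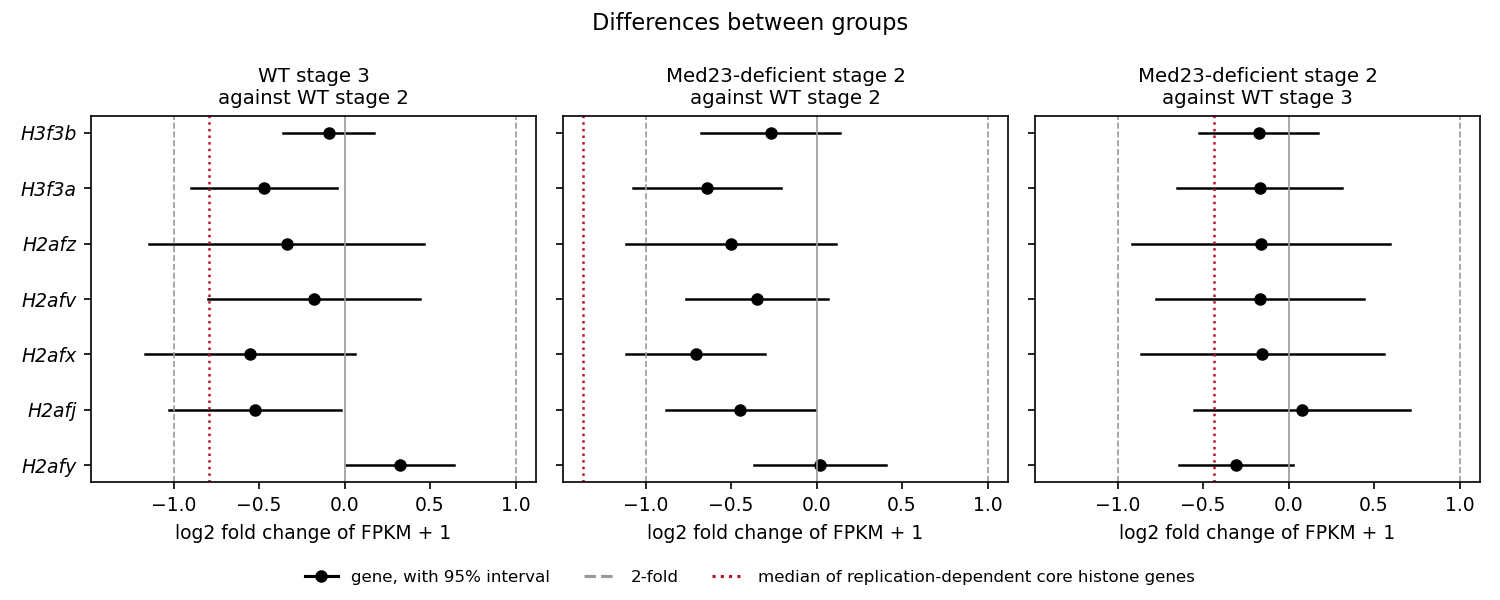
Log2 fold change of FPKM + 1 for each gene (point) with its 95% confidence interval (line) from limma in 3 comparisons; dashed lines mark a 2-fold change and the dotted line the median of the replication-dependent core histone genes of that comparison. The points of H3f3a, H2afx and H2afj lie left of 0 in both comparisons with WT stage 2, between -0.45 and -0.71, and no interval lies wholly beyond a 2-fold change.

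The H3.3 genes differed from each other. H3f3b had the higher FPKM of the pair. It was 63.2, 59.5 and 49.1 FPKM in WT stage 2 and 52.9, 53.4 and 53.8 in WT stage 3. In Med23-deficient stage 2 cells it was 52.6, 52.8 and 37.8. Its WT stage 3 libraries lay within 1 FPKM of each other and inside the range of WT stage 2. The log2 fold change was -0.09 ± 0.11 (SE, n = 3 per group, limma adjusted p = 0.73) in WT stage 3 and -0.27 ± 0.17 (adjusted p = 0.70) in Med23-deficient stage 2, against WT stage 2 in each case. Without replicate 3 of Med23-deficient stage 2, its lowest library, the latter value was -0.11.

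H3f3a was 56.8, 59.0 and 45.2 FPKM in WT stage 2, 47.5, 36.0 and 32.5 in WT stage 3 and 33.8, 41.4 and 27.6 in Med23-deficient stage 2. Every Med23-deficient library was below every WT stage 2 library, while 1 WT stage 3 library lay above the lowest of WT stage 2. The means were 28.0% and 36.1% lower than in WT stage 2, and the log2 fold changes were -0.47 ± 0.17 (limma, adjusted p = 0.32) and -0.64 ± 0.18 (adjusted p = 0.30). The 95% interval of the latter ran from -1.07 to -0.21.

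As a share of the summed FPKM of H3f3a and H3f3b, H3f3b made up 52.7%, 50.2% and 52.1% in the WT stage 2 libraries. It was 52.7%, 59.8% and 62.4% in WT stage 3 and 60.9%, 56.0% and 57.8% in Med23-deficient stage 2. Neither group overlapped WT stage 2, although the lowest WT stage 3 share exceeded the highest WT stage 2 share by less than 0.1 percentage points. The mean differences were 6.61 and 6.57 points, each with p = 0.1 in a two-sided exact permutation test, which is the smallest p that 3 against 3 libraries allow (0.171 after adjustment over the 12 share tests made). A share within a library does not change with the scaling of that library, and these shares rest on H3f3a being lower by more than H3f3b. Reads that hit more than 2 places are left out of them, so they are not the make-up of H3.3 mRNA. Of the 100-base windows, 6.86% of those of H3f3a and 0% of those of H3f3b occurred in at least 2 other genes.

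The H2A.Z genes spread widely within groups. H2afz was 11.5, 20.2 and 17.6 FPKM in WT stage 2, 16.1, 15.4 and 7.68 in WT stage 3 and 11.2, 13.8 and 8.65 in Med23-deficient stage 2. H2afv was 15.8, 11.8 and 11.8 in WT stage 2, 10.8, 16.3 and 8.31 in WT stage 3 and 8.95, 11.9 and 9.46 in Med23-deficient stage 2. All groups overlapped for both genes. Against WT stage 2, the log2 fold changes in WT stage 3 were -0.34 ± 0.33 for H2afz (limma adjusted p = 0.68) and -0.18 ± 0.25 for H2afv (adjusted p = 0.78), and without replicate 3 of WT stage 3 these values came to -0.02 and 0.03. In Med23-deficient stage 2 they were -0.50 ± 0.25 (adjusted p = 0.61) and -0.35 ± 0.17 (adjusted p = 0.60), the latter -0.22 without replicate 1 of WT stage 2.

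Taken as a sum, the H2A.Z genes gave 27.3, 32.0 and 29.4 FPKM in WT stage 2 and 26.9, 31.7 and 16.0 in WT stage 3. In Med23-deficient stage 2 the sum was 20.1, 25.7 and 18.1, without overlap with WT stage 2. Of all single genes 14.0% did not overlap between those groups, and the sum was not tested. Within WT stage 2 the SD of the sum was 2.35 FPKM, against 4.45 for H2afz and 2.32 for H2afv. The sum was thus steadier than H2afv only relative to its mean. In that group the library with the lowest H2afz had the highest H2afv. The share of H2afz in the sum was 42.1%, 63.0% and 59.9% in WT stage 2, 59.7%, 48.7% and 48.0% in WT stage 3 and 55.5%, 53.8% and 47.8% in Med23-deficient stage 2, with overlap in every comparison. Set against WT stage 2, the exact permutation p was 0.8 in WT stage 3 and 0.7 in the Med23-deficient libraries. H2afz is also the member whose reads are most shared with other genes, and the part of such reads in its spread was not tested.

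H2afx, the damage-signalling H2A whose mRNA can end in either a stem-loop or a poly(A) tail, had the tightest values in WT stage 2, at 22.8, 21.1 and 22.0 FPKM. It was 16.1, 20.0 and 9.61 in WT stage 3 and 16.0, 13.6 and 10.2 in Med23-deficient stage 2, so every library of both groups lay below all of WT stage 2. The mean was 30.5% lower in WT stage 3 (log2 fold change -0.55 ± 0.25, limma adjusted p = 0.43) and 39.6% lower in Med23-deficient stage 2 (-0.71 ± 0.17, 95% interval -1.11 to -0.30, adjusted p = 0.22). Without replicate 3 of WT stage 3 the former value was -0.27, and without replicate 3 of Med23-deficient stage 2 the latter was -0.54. The latter was the largest difference of any member in either comparison with WT stage 2. The 2 groups low in H2afx overlapped each other.

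H2afj, which encodes a mammalian H2A variant reported to build up in senescent cells, was 29.3, 28.6 and 26.4 FPKM in WT stage 2, 26.6, 15.1 and 17.6 in WT stage 3 and 19.4, 26.6 and 16.3 in Med23-deficient stage 2. In each of the latter groups 1 library reached the WT stage 2 range and the other 2 lay well below it. The log2 fold changes were -0.52 ± 0.21 (limma adjusted p = 0.35) and -0.45 ± 0.18 (adjusted p = 0.50), the latter -0.30 without replicate 3 of Med23-deficient stage 2.

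H2afy went the other way. It was 16.9, 21.7 and 17.2 FPKM in WT stage 2 and 22.4, 22.4 and 25.7 in WT stage 3, where every library was above all of WT stage 2 and the mean was 26.1% higher (log2 fold change 0.33 ± 0.13, 95% interval 0.01 to 0.64, limma adjusted p = 0.35). In Med23-deficient stage 2 it was 15.8, 19.2 and 21.8, spanning the range of WT stage 2 (0.02 ± 0.16, adjusted p = 0.97). Its sign in that comparison was not stable, at -0.10 on the TPM scale, where each library is rescaled to the same sum. The macroH2A gene was thus the only member with a higher level in the NK1.1+ stage, a difference that did not pass the threshold after adjustment.

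**Figure D3:**
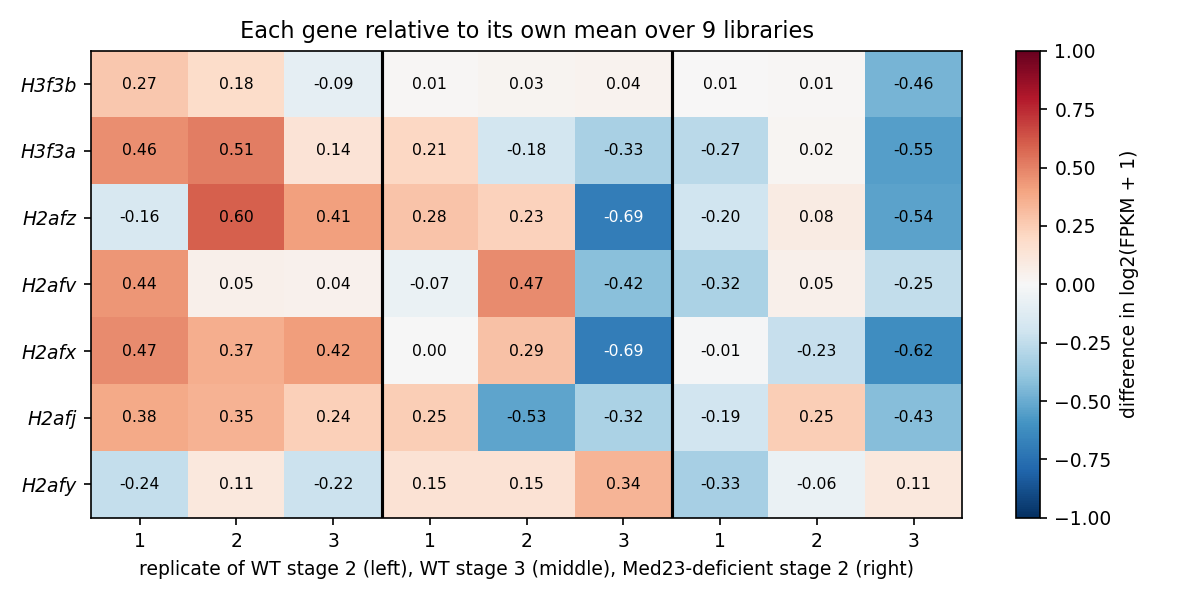
Difference of each gene's log2(FPKM + 1) from its own mean over the 9 libraries, by library; red is above and blue below that mean. Replicate 3 of Med23-deficient stage 2 is blue for 6 of the 7 genes, and replicate 3 of WT stage 3 for 5 of 7.

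The members also varied by library. In replicate 3 of Med23-deficient stage 2, 6 of 7 members were below their mean of the 9 libraries, with a median difference of -0.46 on the log2 scale, and in replicate 3 of WT stage 3 it was 5 of 7 with -0.33. In replicate 2 of WT stage 2 none were below it. A span of at least 1 on the log2(FPKM + 1) scale was found for 3 members, H2afz (1.29), H2afx (1.17) and H3f3a (1.07). The genes closest to these in profile, by the root mean square difference of centred log2(FPKM + 1) values over the 9 libraries among 5686 genes, are named next. For H3f3a they were Hspe1, the mitochondrial co-chaperonin (0.10), Mrpl42 of the mitochondrial ribosome (0.11) and Chchd2 (0.12). For H2afx they were the neurofilament gene Nefh (0.07), Ran, the GTPase of nuclear transport (0.16), and the proteasome subunit gene Psma7 (0.16). For H2afz they were Cox7c of cytochrome oxidase (0.14), Eid1 (0.17) and the complex I gene Ndufv2 (0.17).

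Med23-deficient stage 2 and WT stage 3 cells differ in genotype and in stage together, so their comparison only places the levels. Again 0 of 7 members passed the adjusted p or the fold and p thresholds, against 1.33% and 2.86% of 20846 genes tested, and 0 of 7 had an unadjusted limma p of at most 0.05, against 10.2%, as in the Ballgown-style model. H2afy and H3f3b were lower in Med23-deficient stage 2 without overlap, 2 of 7 against 14.2% of all genes. The gap for H3f3b was under 0.1 FPKM. The log2 fold change was -0.31 ± 0.14 for H2afy (limma adjusted p = 0.54) and lay between -0.17 and 0.08 for the other 6. In these the signs of H2afj, H2afv, H2afx and H2afz each turned when some single library was left out.

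Replication-dependent core histone genes give the setting for these differences. Over the 64 such genes (20 of H2A, 19 of H2B, 12 of H3 and 13 of H4) the median log2 fold change was -0.79 in WT stage 3 against WT stage 2, with 56 lower and 17 past the fold and p thresholds, and -1.36 in Med23-deficient against WT stage 2, with 59 of the 63 tested lower and 35 past those thresholds. The fold and p thresholds were passed by 3.6% and 2.11% of all genes tested. By adjusted p, 1 of 64 and 5 of 63 were called, against 1.67% and 0.213% of all genes. Their summed H3 FPKM was 181, 130 and 178 in WT stage 2, 76.1, 126 and 60.9 in WT stage 3 and 57.7, 43.8 and 38.5 in Med23-deficient stage 2, while the sum of H3f3a and H3f3b was 120, 118 and 94.3, then 100.3, 89.4 and 86.3, then 86.3, 94.3 and 65.3. The means of both sums were lower outside WT stage 2, that of the replication-dependent genes by more, and the H3.3 sums of WT stage 2 overlapped those of WT stage 3.

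The replacement share of H3 FPKM was higher in Med23-deficient stage 2 libraries than in all others. H3f3a and H3f3b were 39.9%, 47.8% and 34.6% of all H3 FPKM in WT stage 2, 56.9%, 41.5% and 58.6% in WT stage 3 and 59.9%, 68.3% and 62.9% in Med23-deficient stage 2. Of the WT stage 3 libraries 1 lay within the WT stage 2 range. The mean differences from WT stage 2 were 11.6 points in WT stage 3 (exact permutation p = 0.2) and 23.0 points in Med23-deficient stage 2 (exact permutation p = 0.1, the smallest possible, 0.171 adjusted).

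For H2A the 5 replacement genes held a smaller share. They were 6.99%, 9.76% and 8.75% of H2A FPKM in WT stage 2, 12.5%, 11.5% and 10.4% in WT stage 3 and 12.6%, 15.0% and 15.0% in Med23-deficient stage 2. The 3 groups did not overlap and stood in this order by mean. The last 2 groups only just separated, with a highest WT stage 3 share of 12.52% and a lowest Med23-deficient share of 12.58%. The mean differences from WT stage 2 were 2.96 and 5.70 points, and 2.74 points between the other 2 groups (exact permutation p = 0.1 for each, 0.171 adjusted). The summed replacement H2A FPKM behind these shares had a mean of 98.2 ± 4.6 (SD, n = 3) in WT stage 2, 83.3 ± 12.6 in WT stage 3 and 74.2 ± 9.7 in Med23-deficient stage 2, and that of the replication-dependent H2A genes had means of 1076 ± 180, 642 ± 46 and 451 ± 67. Replication-dependent genes of 1 family are near copies of each other, and dropping reads that hit more than 2 places lowers their FPKM, so the shares compare libraries with each other and are not the make-up of the mRNA pool.

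**Figure D4:**
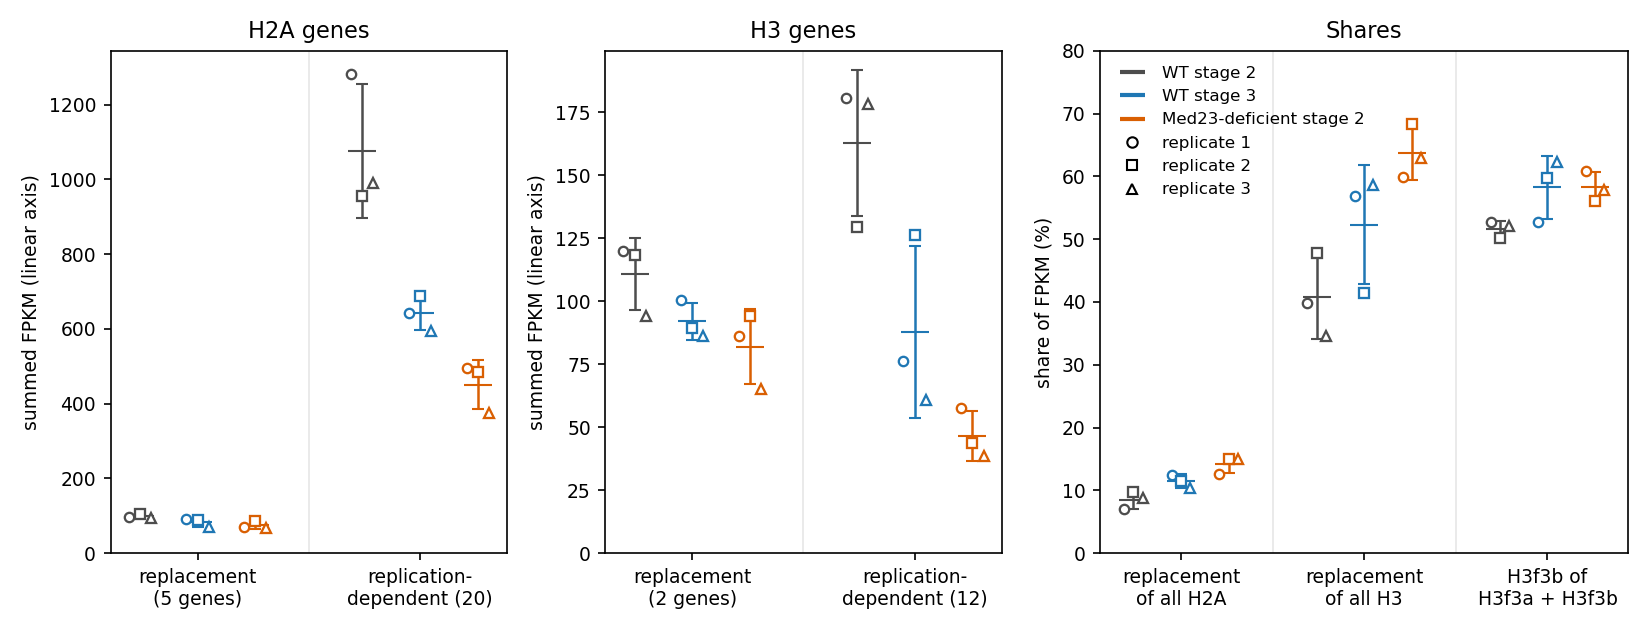
Summed FPKM of replacement and replication-dependent H2A genes (left) and H3 genes (middle) on linear axes, and the share of replacement genes in each family with the share of H3f3b in H3.3 (right), 1 symbol per library with the mean ± SD of 3. The replication-dependent sums are highest in WT stage 2, the replacement sums lie closer together, and the mean replacement share of H2A is 8.50%, 11.5% and 14.2% in the 3 groups.

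The cells differed in division genes in the same comparisons with WT stage 2. All 20 genes of a cell division list were lower in WT stage 3 than in WT stage 2 and all 20 were lower in Med23-deficient than in WT stage 2, with medians of -0.86 and -0.85, and 8 and 7 of them passed the fold and p thresholds, against 3.6% and 2.11% of all genes. By adjusted p, Mki67, Birc5 and Bub1 were called in WT stage 3, and Mki67, Ccnb2, Pcna and Mcm3 in Med23-deficient stage 2, against 1.67% and 0.213% of all genes. Bub1 lay near the floor, with means of 0 FPKM in WT stage 3 and 0.82 in WT stage 2, and Birc5 had means of 0.10 and 2.41. Mki67, the gene of the proliferation marker Ki-67, was 22.3, 29.7 and 34.8 FPKM in WT stage 2, 2.25, 7.47 and 1.69 in WT stage 3 and 4.05, 2.09 and 2.89 in Med23-deficient stage 2, with limma adjusted p of 0.049 and 0.030 against WT stage 2. These adjusted calls of Mki67 were lost in 12 and 8 of 17 alternative fits, while Mki67 passed the fold and p thresholds in all of them. In WT stage 3 the adjusted calls of Birc5 and Bub1 were lost in 12 and 7 of 17. In Med23-deficient stage 2 those of Ccnb2, Pcna and Mcm3 were lost in 11, 10 and 12. The summed FPKM of the list was 207 to 238, 104 to 138 and 103 to 110 in these groups. In Med23-deficient stage 2 against WT stage 3 the median log2 fold change of the list was 0.02, with 9 genes lower and 11 higher. There the median of the replication-dependent core histone genes was -0.44, with 52 of 64 lower, against 49.5% of all genes. The part of the division list in the lower H3f3a and H2afx values was not tested.

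The genes that place or read the replacement histones came next. Of the 7 H3.3 deposition genes (the HIRA complex with Asf1a, and Daxx and Atrx), 0 passed by adjusted p or by fold and p in any comparison. By unadjusted limma p 1 was lower in WT stage 3, 1 of 7 against 13.2% of all genes, and the medians were 0.06 in WT stage 3 and -0.08 in Med23-deficient stage 2. Hira, which encodes the scaffold of that complex, had the most negative log2 fold change of the list in WT stage 3, 5.97, 5.13 and 5.78 FPKM against 6.12, 7.93 and 7.79 (log2 fold change -0.32 ± 0.15, limma adjusted p = 0.46). The most positive was Ubn2, a partner of Hira in that complex, at 4.59, 5.69 and 5.75 against 3.39, 4.17 and 5.96 (0.23 ± 0.22, adjusted p = 0.68), as it was in Med23-deficient stage 2 (0.11 ± 0.26). There the most negative was Asf1a, the H3-H4 chaperone, at 4.30, 5.57 and 4.01 against 6.79, 5.83 and 4.60 (-0.26 ± 0.20, adjusted p = 0.73).

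Of 16 H2A.Z exchange genes, 0 passed either threshold in any comparison. By unadjusted limma p 4 were lower and 1 higher in WT stage 3, 5 of 16 against 13.2% of all genes, and 2 lower and 2 higher in Med23-deficient stage 2, 4 of 16 against 9.58%, with a median of -0.08 in both. Ruvbl1, an ATPase of the SRCAP, TIP60 and INO80 complexes, was 15.1, 15.5 and 12.9 FPKM in WT stage 3 against 21.7, 28.3 and 21.3 in WT stage 2, lower without overlap (-0.67 ± 0.14, limma adjusted p = 0.10, called only in the fit of all 9 libraries). Vps72, which encodes the H2A.Z-binding YL1 subunit, had the most positive one, 13.5, 13.8 and 10.2 against 8.59, 9.93 and 9.37 (0.38 ± 0.15, adjusted p = 0.34). In Med23-deficient stage 2 the most negative was that of Anp32e, the chaperone that removes H2A.Z, at 15.4, 14.5 and 10.6 against 17.7, 16.8 and 22.1 (-0.46 ± 0.18, limma adjusted p = 0.49), and the most positive that of Actr6, a subunit of the SRCAP complex, at 6.30, 4.60 and 4.84 against 1.96, 5.60 and 3.79 (0.45 ± 0.33, adjusted p = 0.73).

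Of 11 H2A.X signalling genes in the table, 1 passed the fold and p thresholds, Rnf8 in WT stage 3, against 3.6% of all genes. The adjusted p was passed by 0, against 1.67% of all genes in that comparison. By unadjusted limma p 1 of the 11 was lower and 1 higher in WT stage 3, against 13.2% of all genes. Rnf8, the ubiquitin ligase recruited to phosphorylated H2A.X through Mdc1, was 9.07, 10.5 and 9.33 FPKM in WT stage 3 against 4.99, 2.87 and 5.11 in WT stage 2 (1.03 ± 0.22, limma adjusted p = 0.096), while H2afx was lower there. That fold and p call was lost in 4 of 17 alternative fits, including those without replicate 2 of either group, and an adjusted call appeared in 1, over genes with a mean of at least 1 FPKM. In Med23-deficient stage 2 cells Rnf8 ranged from 0.95 to 9.66. The extremes there were Mdc1, the scaffold that binds phosphorylated H2A.X, at 12.7, 13.7 and 14.6 against 8.12, 12.7 and 10.6 in WT stage 2 (0.37 ± 0.17, adjusted p = 0.57), and the kinase gene Atm at 14.9 ± 1.69 FPKM against 18.3 ± 2.28 (SD, n = 3 each; -0.28 ± 0.14, adjusted p = 0.60). Trp53bp1, which encodes the break-binding protein 53BP1, was lower in WT stage 3 by 0.56 ± 0.20 on the log2 scale, at 3.62, 3.56 and 4.87 against 6.97, 5.11 and 7.17 (limma adjusted p = 0.29).

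Among other variant histone genes, 5 of 10 listed were in the table. In WT stage 3 against WT stage 2, 1 of these 5 passed the adjusted p, against 1.67% of all genes. The fold and p thresholds were passed there by 2, against 3.6%. In Med23-deficient stage 2 against WT stage 3, 1 passed both, against 1.33% and 2.86%. H1f0, the linker histone of resting and differentiated cells, was the only gene called by adjusted p. It was 8.67, 8.28 and 7.97 FPKM in WT stage 3, 23.6, 18.5 and 15.5 in WT stage 2 and 26.9, 20.7 and 17.8 in Med23-deficient stage 2, lower in WT stage 3 than in either stage 2 group (log2 fold change -1.10 ± 0.16 against WT stage 2, limma adjusted p = 0.042; 1.27 ± 0.16 in Med23-deficient stage 2 against WT stage 3, adjusted p = 0.027). Between the stage 2 groups its value was 0.17 ± 0.21. These calls were lost in 10 and in 8 of 17 alternative fits. Cenpa, the centromeric H3 variant, was 3.51, 3.83 and 6.00 in WT stage 2, 1.01, 2.37 and 1.22 in WT stage 3, past the fold and p thresholds (-1.11 ± 0.31, adjusted p = 0.18; not past them without replicate 3 of WT stage 2 or replicate 1 of WT stage 3), and 3.03, 1.28 and 1.72 in Med23-deficient stage 2 (-0.87 ± 0.32, adjusted p = 0.45).

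Between Med23-deficient stage 2 and WT stage 3, 0 deposition, exchange, signalling or cell division genes passed either limma threshold. Of all genes 1.33% passed the adjusted p and 2.86% the fold and p thresholds. At an unadjusted p of at most 0.05 there were 0 of 7, 2 of 16, 0 of 11 and 1 of 20, against 10.2%. The extremes of the lists were as follows on the log2 scale. Among deposition genes Ubn1 was at 0.18 and Asf1a at -0.31, and among exchange genes Srcap, the ATPase of its complex, was at 0.50 and Znhit1 at -0.19. Among signalling genes Rnf168, a ubiquitin ligase that acts after Rnf8, was at 0.36 and Rnf8 at -1.03. Among cell division genes Mcm6 was at 0.13 and Pcna, the sliding clamp of DNA replication, at -0.71. Among other variant histone genes H1f0 was at 1.27 and H3f3c at -0.35.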

How the data were processed

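RNA from 9 libraries of sorted thymic iNKT cells was analysed, 3 per group, with groups taken from the sample titles. The authors trimmed reads with Trimmomatic 0.36, aligned them to mm10 with HISAT2, kept reads hitting no more than 2 loci and quantified GENCODE vM12 genes with StringTie. The values used are the FPKM the authors deposited, rounded to 2 decimals, with replicates kept apart. No counts were given, so depth and counting error are unknown.

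From these, log2(FPKM + 1) was tested two-sided with limma 3.58.1 in R 4.3.3 (lmFit, eBayes with trend), in 1 fit per comparison of 6 libraries, over all genes above 0 in at least 1 of them, with Benjamini-Hochberg adjustment over all of these. Fold changes are on the log2(FPKM + 1) scale and understate those of low genes. Calls used an adjusted p of at most 0.05, and the study's thresholds of a fold change of at least 2 and p of at most 0.05. Shares were compared with exact permutation tests in SciPy 1.17.1. The code was tested on simulated data. Transcript windows and coding sequences were compared in GENCODE vM21 with Python 3.11.15.

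The 7 members, all of which passed the filter, and the gene lists were chosen with earlier results of these data known. Named are the members, list genes past a threshold (for cell division those past the adjusted p; replication-dependent genes only as counts and sums), and per list and comparison the largest log2 fold change in each direction among genes with a mean of at least 1 FPKM; for members spanning at least 1 on the log2 scale, the 3 closest profiles among genes with a mean of at least 5 FPKM. Alternatives covered pseudocounts, a filter on low values, scaling, the test, the libraries in the fit, the replicate number as a block and leaving out each library.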

Additional observations from a re-analysis of the deposited data

How the results depend on the processing

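In 17 alternative fits per comparison 0 of 7 members passed the adjusted p or the fold and p thresholds, and the lowest adjusted p of any member was 0.099 (H2afj in WT stage 3). The count at an unadjusted p of at most 0.05 ranged from 0 to 3 in WT stage 3 against WT stage 2, from 2 to 5 in Med23-deficient against WT stage 2 and from 0 to 1 in Med23-deficient stage 2 against WT stage 3. The shares of all genes at that p in these fits are not given here. H3f3a, H3f3b, H2afj, H2afx and H2afz kept a negative sign in both comparisons with WT stage 2 in all 17. H2afy in Med23-deficient against WT stage 2 came to -0.10 on the TPM scale, to -0.018 on that scale without Gm23935, and to between -0.083 and 0.14 with 1 library left out. With 1 library left out, H2afv in WT stage 3 against WT stage 2 ranged from -0.42 to 0.027. In Med23-deficient stage 2 against WT stage 3 the ranges were -0.11 to 0.30 for H2afj, -0.37 to 0.071 for H2afv, -0.43 to 0.059 for H2afx and -0.48 to 0.011 for H2afz. In the same way, the share of H3f3b in H3.3 differed between the latter groups by -2.83 to 1.99 points, and the share of H2afz in H2A.Z by -1.85 to 4.0 points. The H2afz share differed from WT stage 2 by -9.30 to 1.15 points in WT stage 3 and by -9.09 to 1.36 points in Med23-deficient stage 2. The replacement shares of H2A and H3 and the H3f3b share against WT stage 2 kept their direction without any 1 library. The cause of these shifts was not tested.

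Replication-dependent histone calls moved more: by fold and p they ranged from 7 to 25 against 17 in WT stage 3, from 26 to 38 against 35 in Med23-deficient stage 2 and from 4 to 12 against 6 between these groups, and by adjusted p from 0 to 7 against 1, from 0 to 20 against 5 and from 0 to 2 against 2. Cell division calls by fold and p ranged from 6 to 12 against 8 and from 6 to 13 against 7, and by adjusted p from 0 to 8 against 3 and from 0 to 6 against 4. The median of genes with a mean of at least 1 FPKM was -0.05 in both comparisons with WT stage 2, and -0.13 and -0.15 on the TPM scale.

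The labels give same-numbered libraries only a number in common. The correlation of their deviations from the group means over genes was 0.03 to 0.16, 0.01 to 0.15 and 0.04 to 0.27 in the 3 comparisons, and -0.11 to 0.03, -0.09 to 0.05 and -0.18 to 0.13 between libraries of different number. Every library correlated best with its own number in WT stage 3 against WT stage 2 but not in the other comparisons, a hint from the data and not from the design. With the replicate block 0 of 7 members passed either threshold in each comparison. The count of members at an unadjusted p of at most 0.05 was 2, 4 and 1, without a share of all genes beside it. The adjusted calls among replication-dependent and cell division genes came to 0. Depth limits cannot be given without counts. With 3 libraries per group, the intervals of H2afz, H2afx and H2afj in WT stage 3 include a 2-fold decrease, as do those of H2afz, H2afx and H3f3a in Med23-deficient stage 2.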
